A study of Rattus norvegicus with 4 samples.

Results

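The genes described here are 8 transcription factors that specify endoderm (Sox17, Sox7, Foxa1, Foxa2, Foxa3, Hhex, Gata4 and Gata6) and the chemokine receptor gene Cxcr4, which is widely used as a surface marker of definitive endoderm. They were picked by symbol, and each of the 9 matched a single row of the 32753 genes in the deposited tables. None of these rows shares its symbol or its locus with another gene. RNA-seq compared Kcnh2-/- with wild-type (WT) embryoid bodies of the rat, the aggregates that differentiating stem cells form, at day 4 of differentiation, with 2 libraries per genotype and 4 in all. Kcnh2 encodes a voltage-gated potassium channel, and the comparison asks how its loss alters expression early in differentiation.

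Both groups were grown from rat embryonic stem cells of a strain labelled DASD and handled alike. Drops of 20 µl hung for 2 days in a medium named CM with CHIR9902 (0.75 µM), PD0325901 (0.1 µM) and Y27632 (10 µM). The aggregates then attached to laminin for 24 hours with CHIR9902 and PD0325901, and spent 1 day in a medium named DM. PD0325901 inhibits the kinase MEK, and Y27632 inhibits the kinase ROCK. The labels do not say which part of Kcnh2 was altered, whether each genotype is a single clone, or whether replicates came from separate cultures, so any p-value measures only the spread between these samples.

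Endoderm arises from the anterior primitive streak under high Nodal signalling, which switches on SOX17, the FOXA factors, GATA4, GATA6 and HHEX. Extraembryonic (primitive) endoderm forms earlier, from the blastocyst's inner cell mass, and uses many of the same factors, among them GATA6, GATA4, SOX17 and SOX7. None of these genes belongs to endoderm alone: GATA4 and GATA6 act in heart mesoderm, SOX7, SOX17, HHEX and CXCR4 in endothelium and blood precursors, and FOXA2 in the notochord and floor plate. In bulk RNA, fewer cells of a type and less RNA per cell cannot be told apart.

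Levels are in RPKM, which scales reads to the length of the transcript and the size of the library, and read depth is unknown. The libraries differed in several ways that touch what follows. RPKM summed over all genes to 1.09e+08 and 8.93e+06 in Kcnh2-/- replicates 1 and 2 and to 7.95e+07 and 1.17e+07 in WT replicates 1 and 2, so this sum splits by replicate number. For that reason, differences within each number are given beside the pooled ones, although the labels name no batch. Protein-coding genes made up 0.538% and 9.69% of this sum in Kcnh2-/- and 1.28% and 6.09% in WT. Their own sums were 5.89e+05 and 8.66e+05 RPKM in Kcnh2-/- and 1.02e+06 and 7.12e+05 RPKM in WT. These did not split by replicate number and were highest in WT replicate 1. Kcnh2 itself was at 0.108 and 0.504 RPKM in the Kcnh2-/- libraries, against 2.61 and 1.45 RPKM in the WT libraries (limma adjusted p = 0.980). Protein-coding Y-linked genes summed to 0.153 and 0.194 RPKM in Kcnh2-/- and to 241 and 205 RPKM in WT, so genotype and Y-linked expression cannot be told apart here.

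Cxcr4 had the highest mean level of the 9 genes. It encodes the receptor for the chemokine CXCL12 and guides the migration of early endoderm and mesoderm cells. Cxcr4 (rn6 chromosome 13, 45314932 to 45318878) was at 6.71 and 0.726 RPKM in Kcnh2-/- replicates 1 and 2, against 58.1 and 10.0 RPKM in WT replicates 1 and 2. Both Kcnh2-/- libraries lay below both WT libraries, and replicate 2 lay below replicate 1 in each genotype. The group means were 3.72 ± 4.23 RPKM in Kcnh2-/- and 34.1 ± 34.0 RPKM in WT (SD, n = 2 each). The WT level was 8.66 times the Kcnh2-/- level within replicate 1 and 13.8 times within replicate 2. Among protein-coding genes above 0, this placed Cxcr4 at the 53.1 and 26.7 percentiles of the Kcnh2-/- libraries and at the 89.5 and 58.0 percentiles of the WT libraries.

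Foxa2 encodes a pioneer factor that opens chromatin at endoderm enhancers. Foxa2 (chromosome 3, 142383277 to 142387481) was at 8.37 and 0.231 RPKM in Kcnh2-/-, against 38.3 and 6.18 RPKM in WT. The groups overlapped, since Kcnh2-/- replicate 1 stood above WT replicate 2. The gap between replicates of one genotype was wide: replicate 1 was 36.2 times replicate 2 in Kcnh2-/- and 6.19 times in WT. In Kcnh2-/- replicate 2 Foxa2 was at the 17.2 percentile of protein-coding genes above 0, and in WT replicate 1 at the 83.7 percentile.

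The other FOXA genes were low. Foxa1, which shares much of its target repertoire with Foxa2 in mouse gut endoderm, was at 0.503 and 0.0925 RPKM in Kcnh2-/-, against 1.84 and 0.253 RPKM in WT (chromosome 6, 78545803 to 78549669). Its libraries had the same order as those of Foxa2, at far lower levels. Foxa3, a liver and gut family member that comes on after the other two in mouse, was at 0.851 and 0.136 RPKM in Kcnh2-/-, against 0.701 and 0.981 RPKM in WT (chromosome 1, 79920751 to 79930263). Foxa3 departed from its relatives: Kcnh2-/- replicate 2 was low and the other 3 libraries lay close together. Foxa2 was 16.6 and 2.50 times the level of Foxa1 in the Kcnh2-/- libraries, and 20.9 and 24.5 times in the WT libraries.

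Sox17, an SRY-box factor needed for definitive endoderm in mouse, was the third most abundant of the set in mean level. Sox17 (chromosome 5, 14890407 to 14895907) was at 4.96 and 1.32 RPKM in Kcnh2-/-, against 20.8 and 5.15 RPKM in WT. The groups did not overlap, but only by the small gap between Kcnh2-/- replicate 1 and WT replicate 2. The WT level was 4.19 times the Kcnh2-/- level within replicate 1 and 3.91 times within replicate 2, the most even pair of ratios among the genes tested. Its close relative Sox7, a marker of primitive endoderm and early endothelium, was near the bottom of the range, at 0.159 and 0.0407 RPKM in Kcnh2-/-, against 0.414 and 0.0839 RPKM in WT (chromosome 15, 47293698 to 47300460). Sox17 was 31.2 and 32.4 times the level of Sox7 in the Kcnh2-/- libraries, and 50.2 and 61.4 times in the WT libraries.

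Gata4 and Gata6 encode zinc-finger factors that bind the same core motif and act together in primitive endoderm, heart and gut. Gata4 (chromosome 15, 46386711 to 46432965) was at 1.54 and 0.0265 RPKM in Kcnh2-/-, against 5.19 and 1.32 RPKM in WT. Gata6 (chromosome 18, 2416551 to 2446338) was at 1.05 and 0.406 RPKM in Kcnh2-/-, against 6.07 and 0.804 RPKM in WT. Groups overlapped for both genes, because Kcnh2-/- replicate 1 again stood above WT replicate 2. Gata6 was 0.681 and 15.3 times the level of Gata4 in the Kcnh2-/- libraries, and 1.17 and 0.607 times in the WT libraries. The ratio of 15.3 came from Kcnh2-/- replicate 2, where Gata4 was almost absent.

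Hhex, a homeobox repressor of the anterior endoderm that also acts in blood and endothelial precursors, varied least. Hhex (chromosome 1, 256101902 to 256107649) was at 5.47 and 6.65 RPKM in Kcnh2-/-, against 8.90 and 6.67 RPKM in WT. Its means were 6.06 ± 0.835 RPKM in Kcnh2-/- and 7.79 ± 1.58 RPKM in WT (SD, n = 2 each). The groups did not overlap, by a margin of almost nothing between the replicate 2 libraries. In Kcnh2-/- replicate 2 Hhex was the most abundant of the 9 genes, at 28.7 times the level of Foxa2, whereas in WT replicate 1 it was at 0.232 times that level.

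**Figure D1:**
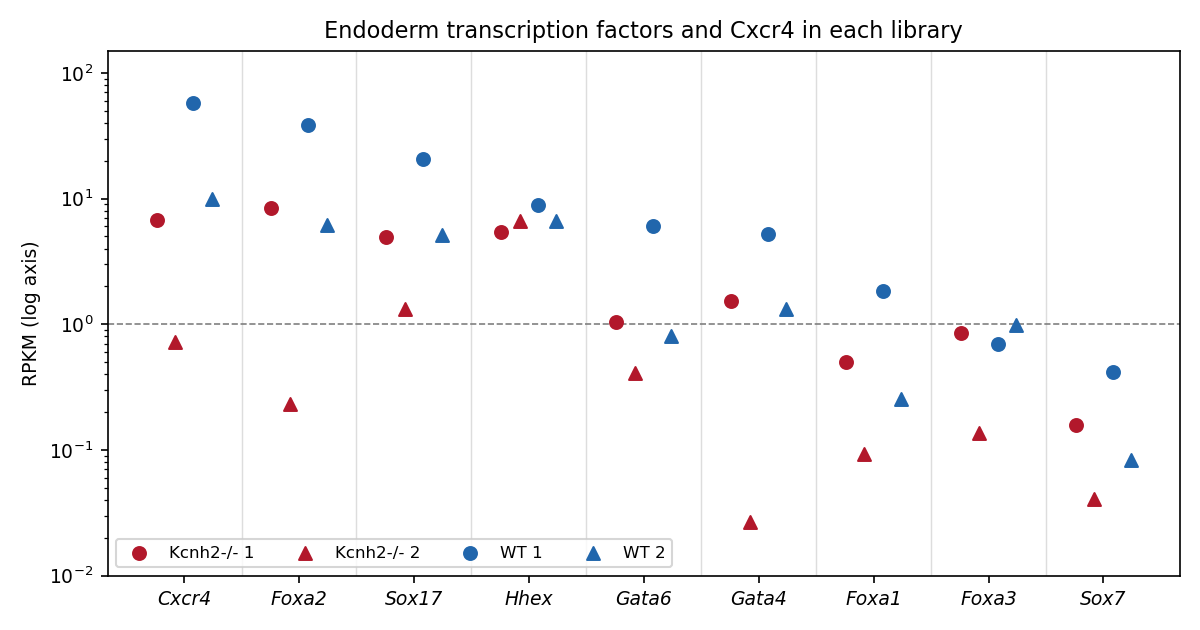
RPKM on a log axis for the 9 genes, 1 point per library, with Kcnh2-/- in red, WT in blue, circles for replicate 1 and triangles for replicate 2; the dashed line is the filter of 1 RPKM. WT replicate 1 is the top point for 8 genes and Kcnh2-/- replicate 2 the bottom point for 8, while Hhex stays between 5.47 and 8.90 RPKM.

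By mean over all 4 libraries, the order of levels was Cxcr4, Foxa2, Sox17, Hhex, Gata6, Gata4, Foxa1, Foxa3 and Sox7. For every pair of neighbours in this order the ranges over the 4 libraries overlapped. The order also changed with the library, with Foxa2 above Cxcr4 in Kcnh2-/- replicate 1 and Hhex first in Kcnh2-/- replicate 2. In sum, the 9 genes reached 29.6 and 9.62 RPKM in Kcnh2-/- and 140 and 31.5 RPKM in WT.

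RefSeq promoter sequences (GRCr8, 250 bases before to 50 after the start of the gene, 300 bases in all) matched 5 of the 9 genes. Those of Cxcr4, Foxa2 and Gata6, each highest in WT replicate 1 and lowest in Kcnh2-/- replicate 2, are printed with that of Hhex, which was not lowest there. They are Cxcr4 at chr13:42634239-42634538 on the minus strand, Foxa2 at chr3:155927459-155927758 on the minus strand, Gata6 at chr18:2460659-2460958 on the plus strand and Hhex at chr1:244602695-244602994 on the plus strand. Each is written 5′ to 3′ along its gene, and capitals mark matches to the motifs listed after them.
Cxcr4: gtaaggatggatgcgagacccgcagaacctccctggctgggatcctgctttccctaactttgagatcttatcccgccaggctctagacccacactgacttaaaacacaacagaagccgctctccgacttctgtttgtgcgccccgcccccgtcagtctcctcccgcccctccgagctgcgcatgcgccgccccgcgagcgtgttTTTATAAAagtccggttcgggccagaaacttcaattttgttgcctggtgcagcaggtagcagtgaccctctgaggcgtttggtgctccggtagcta
Foxa2: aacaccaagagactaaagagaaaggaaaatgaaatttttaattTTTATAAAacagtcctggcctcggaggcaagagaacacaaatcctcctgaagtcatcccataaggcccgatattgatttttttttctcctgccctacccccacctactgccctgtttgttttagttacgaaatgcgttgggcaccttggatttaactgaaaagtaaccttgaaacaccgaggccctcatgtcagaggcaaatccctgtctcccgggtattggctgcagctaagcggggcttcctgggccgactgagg
Gata6: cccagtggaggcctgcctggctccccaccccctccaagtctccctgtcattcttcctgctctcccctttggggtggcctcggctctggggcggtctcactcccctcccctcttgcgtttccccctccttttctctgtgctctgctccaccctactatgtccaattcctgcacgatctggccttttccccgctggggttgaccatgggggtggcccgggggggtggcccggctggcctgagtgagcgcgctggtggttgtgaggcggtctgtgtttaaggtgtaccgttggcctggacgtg
Hhex: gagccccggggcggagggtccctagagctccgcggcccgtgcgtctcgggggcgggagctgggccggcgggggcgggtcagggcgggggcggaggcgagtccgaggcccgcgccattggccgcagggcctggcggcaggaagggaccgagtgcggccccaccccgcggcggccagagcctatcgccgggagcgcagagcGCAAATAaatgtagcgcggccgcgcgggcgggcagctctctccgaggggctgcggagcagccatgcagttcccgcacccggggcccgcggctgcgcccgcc

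Both strands were searched for 7 motifs. The forkhead letters were TGTTTAC or TGTTTGC or TATTTAC or TATTTGC. The GATA letters were AGATAA or AGATAG or TGATAA or TGATAG, and the SOX letters were ACAATG or ACAAAG. The FOXH1 letters were AATCCACA or AATACACA, and the T-box letters AGGTGTGA. The TCF/LEF letters were CTTTGAT or CTTTGAA, and the TATA box was TATAAA. The forkhead letters occurred once among these windows, in Hhex on the minus strand, and in 14.2% of all 33469 promoters. TATAAA stood in Cxcr4, with its first base at -44 from the start, and in Foxa2 at -205, each overlapping a match on the other strand. It also occurred in Foxa3 at -82, and in 14.2% of all promoters. The letters for GATA, SOX, FOXH1, T-box and TCF/LEF were in none of the 5 windows, against 30.3%, 29.1%, 1.89%, 1.10% and 8.73% of all promoters in that order. The promoters also differed in composition, with 58.0% G and C in Cxcr4, 46.7% in Foxa2, 64.7% in Gata6 and 79.0% in Hhex, beside a median of 51.7% over all promoters. Hhex held 42 CpG pairs and Foxa2 held 8, against a median of 7.

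Between genotypes, none of the 9 genes passed the test in the fit without a replicate term. limma was run on log2(RPKM + 1) for every gene that reached 1 RPKM in 2 or more libraries, 12355 in all, at a Benjamini-Hochberg adjusted p under 0.05. Of the 9 genes, 6 passed that filter, while Foxa1, Foxa3 and Sox7 did not and were not tested. Gata6 passed through replicate 1 of each genotype. The test called 14 genes in all (0.113%), of which 10 were lower (0.0809%) and 4 higher (0.0324%) in Kcnh2-/-. Of the 6, limma called 0, and 0 were at an unadjusted p under 0.05, against 3.38% of all genes tested. On simulated data with the replicate effect of these libraries, this fit recovered none of the planted changes, which were 1 to 4 (log2). So 0 calls do not show that these genes were alike in both genotypes. The simulation gave every gene the same noise and planted changes in the more abundant genes only. It made 0 calls, against 14 in the data, so it matched these libraries only in part. With 2 against 2 libraries, an exact permutation test cannot go below p = 0.333.

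All 6 estimates were negative, and 5 of them were at -1 or lower, as were 3.09% of all genes tested. The log2 difference, Kcnh2-/- minus WT, was -2.80 ± 1.11 (SE) for Cxcr4, -2.31 ± 1.30 for Foxa2 and -1.64 ± 0.81 for Sox17. It was -1.23 ± 0.72 for Gata4, -1.07 ± 0.76 for Gata6 and -0.31 ± 0.32 for Hhex. The limma adjusted p was 0.980 for each of the 6. Untested, the difference was -0.56 for Foxa1, -0.34 for Foxa3 and -0.17 for Sox7. On this scale a fold change of a low gene such as Gata4 is understated. The median over the 6 was -1.44, and -1.83 within replicate 1 and -1.29 within replicate 2, beside 0.00524, 0.00723 and 0.0266 over all genes tested.

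The difference between replicates of one genotype was as large as that between genotypes. Replicate 2 minus replicate 1 had a median over the 6 tested genes of -1.33 in Kcnh2-/- and -1.90 in WT, beside 0.0865 and 0.0710 over all genes tested. In 8 of the 9 genes, the wider of the 2 replicate gaps exceeded the size of the group difference. Cxcr4 was the exception, with replicate gaps of -2.16 in Kcnh2-/- and -2.43 in WT. The group difference is a mean over 2 pairs of libraries, so this count favours the replicate gap. The share of all genes was not counted. Against the wider of the 2 differences within a replicate number, the wider replicate gap was smaller for Cxcr4, Sox17, Hhex and Foxa3. It was larger for Foxa2, Gata4, Gata6, Foxa1 and Sox7.

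**Figure D2:**
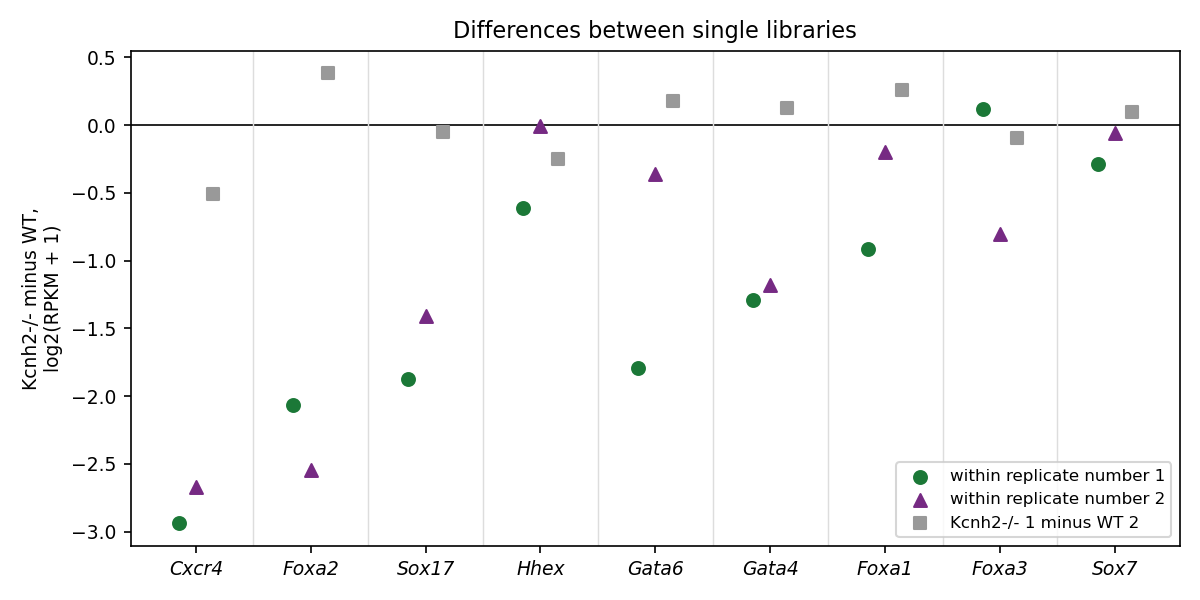
Differences in log2(RPKM + 1) between single libraries for the 9 genes: Kcnh2-/- minus WT within replicate 1 (circles), within replicate 2 (triangles), and Kcnh2-/- replicate 1 minus WT replicate 2 (squares). Within both numbers Cxcr4 lies at -2.94 and -2.67, whereas the squares lie between -0.51 for Cxcr4 and 0.38 for Foxa2.

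The same highest and lowest library recurred through most of the set, with WT replicate 1 at the top and Kcnh2-/- replicate 2 at the bottom. Kcnh2-/- replicate 2 was the lowest library for 8 of the 9 genes, where 20.2% of the 20201 genes above 0 in any library were lowest there. WT replicate 1 was the highest for 8 of the 9, where 28.5% of those genes were highest. In all, 7 of the 9 genes were highest in WT replicate 1 and lowest in Kcnh2-/- replicate 2, as were 11.8% of those genes. The exceptions were Foxa3 and Hhex. Of the 6 tested genes 5 were, against 12.9% of all genes tested. Groups did not overlap for Cxcr4, Sox17 and Hhex, 3 of the 9, where 14.4% of genes above 0 in any library, and 15.3% of those tested, were lower in Kcnh2-/- without overlap. Within both replicate numbers, 8 of the 9 were lower in Kcnh2-/-, against 25.8% of those genes, Foxa3 being the exception. All 6 tested genes were, against 28.1% of all genes tested. These genes were chosen with their pattern known, so the counts describe the set and do not test it.

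The middle libraries were close together. Kcnh2-/- replicate 1 was above WT replicate 2 for 5 of the 9 genes, a count that describes the set only, since the share of all genes with this order was not counted. The level in Kcnh2-/- replicate 1 was 0.962 times that in WT replicate 2 for Sox17, 0.672 for Cxcr4, 0.819 for Hhex and 0.868 for Foxa3. It was 1.35 times for Foxa2, 1.16 for Gata4, 1.30 for Gata6, 1.99 for Foxa1 and 1.89 for Sox7. Over those 2 libraries alone, a comparison chosen after the data were seen, the median log2 difference of the 6 tested genes was 0.0396. Without WT replicate 1 the median was -0.73, and without Kcnh2-/- replicate 2 it was -0.82. Without WT replicate 2 it was -2.31, and without Kcnh2-/- replicate 1 it was -2.32.

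Foxa2 and Cxcr4 lie on chromosomes whose genes as a whole stood apart in 1 library. On chromosomes 3, 13 and 16 the median protein-coding gene was higher in replicate 2 than in replicate 1 by 0.38 to 0.43 (log2) in WT, against 0.0252 to 0.0911 in Kcnh2-/-. On the other 17 autosomes the same median ran from 0.0151 to 0.19 in Kcnh2-/- and from -0.19 to 0.25 in WT. Within replicate 2, the median Kcnh2-/- minus WT difference was -0.33 on chromosome 3 and -0.35 on chromosome 13. Less the median of the other genes on its chromosome, the difference within replicate 2 was -2.21 for Foxa2 and -2.32 for Cxcr4. For Sox17, on chromosome 5, it was -1.48, and for Gata4, on chromosome 15, -1.21. It was smaller for Gata6, on chromosome 18, at -0.42, and for Hhex, on chromosome 1, at -0.064. For Cxcr4, the gap between the groups was that between Kcnh2-/- replicate 1 and WT replicate 2, at -0.51 (log2). That value was not set against chromosome 13, where the median gene in WT was higher by 0.41 in replicate 2 than in replicate 1.

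Each tested gene was then placed by its profile over the 4 libraries, as log2(RPKM + 1) less its own mean. The mean profile of the 6 was -0.11 and -1.45 in Kcnh2-/- replicates 1 and 2, and 1.65 and -0.0905 in WT replicates 1 and 2. Sox17 lay nearest to it, at a root mean square distance of 0.0488, followed by Gata4 at 0.20. Hhex was farthest of those tested, at 0.97. Of 8001 other protein-coding genes with a mean level from 5 RPKM up, whose median distance was 1.16, the 9 nearest were Bmp7, Kit, Aif1l, Tnnt2, Spry1, Cdk14, Plppr3, Pls1 and Cxadr. Bmp7, which encodes a bone morphogenetic protein, was at 3.26 and 0.821 RPKM in Kcnh2-/-, against 15.7 and 3.11 RPKM in WT (distance 0.11). Kit, the receptor for stem cell factor, was at 11.5 and 5.12 RPKM in Kcnh2-/-, against 47.7 and 11.8 RPKM in WT (distance 0.13). The distances of the 9 ran up to 0.21, over 4 libraries only.

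**Figure D3:**
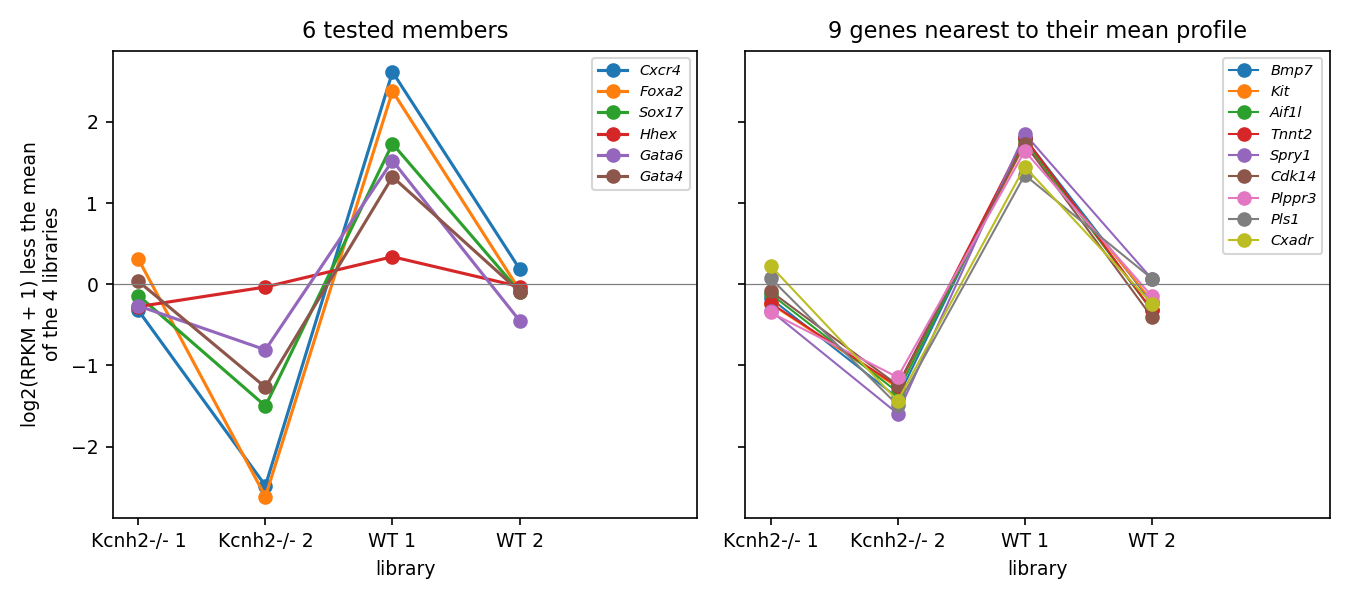
Profiles over the 4 libraries, as log2(RPKM + 1) less each gene's mean, for the 6 tested genes (left) and the 9 protein-coding genes nearest to their mean profile (right). All 15 genes peak in WT replicate 1, and all but Hhex are lowest in Kcnh2-/- replicate 2. For the 9 on the right this follows from how they were picked.

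Genes that carry the Nodal signal upstream of these factors did not share 1 direction. Of 11 listed, all were tested and limma called 0 in either direction, with 0 at an unadjusted p under 0.05. Their median difference was -0.25, and within both replicate numbers 8 were lower and 3 higher in Kcnh2-/-. The co-receptor gene Tdgf1 was at 240 and 409 RPKM in Kcnh2-/-, against 41.3 and 226 RPKM in WT. Smad3, a transducer of Nodal, was at 4.03 and 2.10 RPKM in Kcnh2-/- and 15.02 and 3.85 RPKM in WT, and the receptor gene Acvr2b at 6.67 and 8.03 RPKM in Kcnh2-/- and 10.1 and 20.1 RPKM in WT. Tdgf1 thus stood highest in Kcnh2-/- replicate 2 and lowest in WT replicate 1, the reverse of most of the endoderm factors. Nodal, the gene of the ligand itself, was also highest and lowest in those libraries. It was higher in Kcnh2-/- by 1.08 (log2) within replicate 1 and by 0.944 within replicate 2, although its groups overlapped.

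Of 15 other early definitive endoderm genes, 13 were tested and limma called 0, with 0 at an unadjusted p under 0.05 and a median difference of -0.93. They did not share 1 direction. Within both replicate numbers 6 were lower in Kcnh2-/-, beside 28.1% of all genes tested, and 4 were higher, namely Eomes, Epcam, Lefty1 and Fgf17. Eomes was at 11.5 and 9.79 RPKM in Kcnh2-/-, against 8.70 and 9.05 RPKM in WT. Cer1, which encodes a secreted inhibitor of Nodal and Wnt signals, was at 21.4 and 0.144 RPKM in Kcnh2-/-, against 52.2 and 28.8 RPKM in WT. Lhx1, a LIM homeobox gene of anterior mesendoderm, was at 1.67 RPKM and listed at 0 in Kcnh2-/-, against 6.11 and 2.74 RPKM in WT. Both genes were lowest in Kcnh2-/- replicate 2. Epcam, an epithelial adhesion gene not limited to endoderm, was at 272 and 263 RPKM in Kcnh2-/-, against 171 and 234 RPKM in WT. Otx2 was listed at 0 in every library, which in such files can be a failed estimate.

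Of 11 later endoderm factors, 6 stayed under 1 RPKM in every library. Of the list 3 were tested, and limma called 0 with 0 at an unadjusted p under 0.05. Hnf4a, a master regulator of visceral endoderm and liver, was at 0.0318 RPKM and listed at 0 in Kcnh2-/-, against 0.162 and 0.0102 RPKM in WT. Klf5, the most abundant of the list and also active in pluripotent cells, was at 11.2 and 34.6 RPKM in Kcnh2-/- and 8.64 and 26.0 RPKM in WT.

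Among 7 GATA and SOX paralogues and FOG cofactors, Gata1 alone was tested. This X-linked erythroid factor gene was at 2.11 and 2.59 RPKM in Kcnh2-/-, against 0.153 and 0.186 RPKM in WT, the opposite direction to Gata4 and Gata6. Its groups did not overlap, and it differed by 1.51 ± 0.36 (SE) on the log2 scale, with a limma adjusted p of 0.980. The median protein-coding X-linked gene was itself higher in Kcnh2-/-, by 0.64 within replicate 1 and 0.59 within replicate 2. Gata3, Gata2, Gata5, Sox18, Zfpm1 and Zfpm2 did not pass the filter. Their untested differences were all negative, from -0.64 for Gata3 to -0.13 for Zfpm2, so Gata1 stood apart from the rest of its list. WT replicate 1 was the highest library for 5 of the 7, against 28.5% of genes above 0 in any library. Of the 7, 4 stayed under 1 RPKM in every library.

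The ligand and second receptor of the CXCR4 axis did not share the whole pattern of Cxcr4. Cxcl12 was at 1.14 and 2.18 RPKM in Kcnh2-/-, against 1.80 and 1.84 RPKM in WT. Ackr3, a second CXCL12 receptor that works mainly as a scavenger, was at 3.33 and 3.71 RPKM in Kcnh2-/-, against 9.52 and 1.90 RPKM in WT. Like Cxcr4, Ackr3 was highest in WT replicate 1, but it was lowest in WT replicate 2. Cxcr4 was therefore 2.02 and 0.196 times the level of Ackr3 in the Kcnh2-/- libraries, and 6.10 and 5.25 times in the WT libraries. All 7 genes of this list were tested, with 0 called by limma, 0 at an unadjusted p under 0.05 and a median difference of -0.11. WT replicate 1 was the highest library for 5 of the 7, where 28.5% of genes above 0 in any library were highest there. Gnai2, a G-protein subunit through which CXCR4 signals, was at 147 and 137 RPKM in Kcnh2-/- and 156 and 86.0 RPKM in WT.

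**Figure D4:**
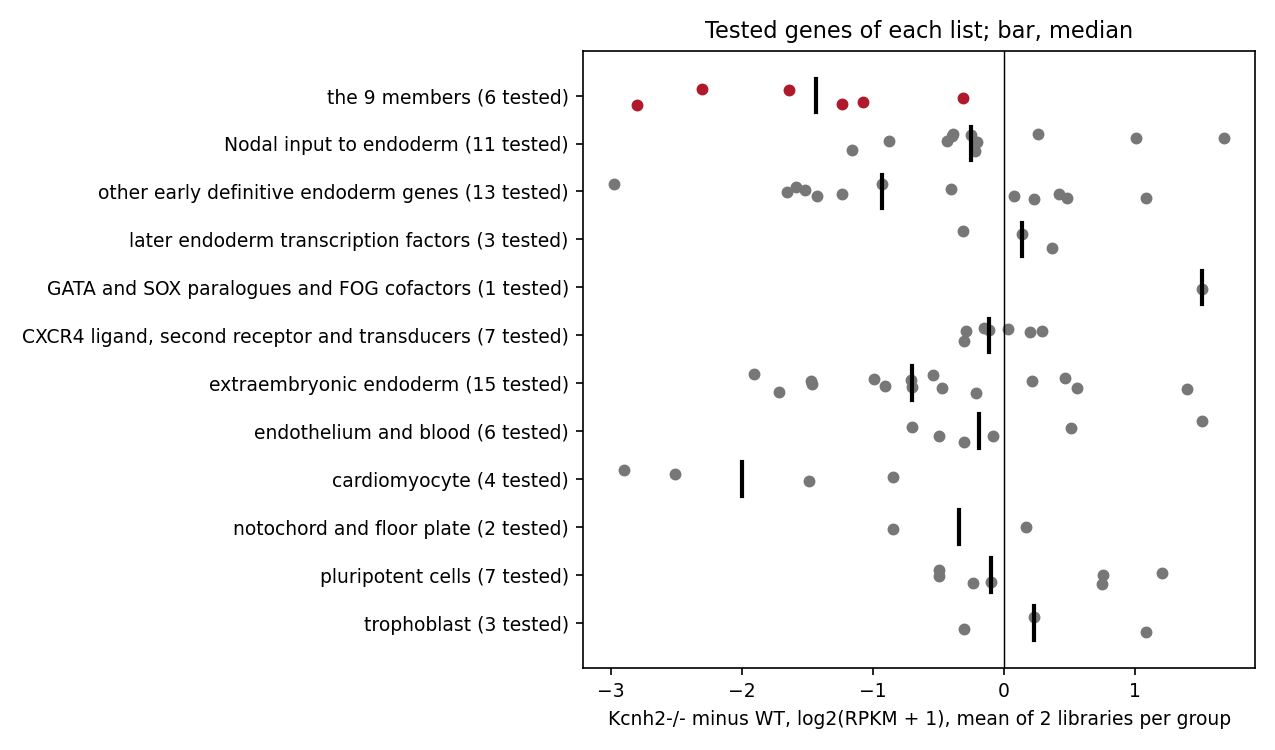
Log2 difference, Kcnh2-/- minus WT, of each tested gene in the 9-gene set (red) and in the other lists (grey), with a bar at each list's median. The 6 tested members have a median of -1.44 and the cardiomyocyte genes one of -1.998, while those of the CXCR4 axis and of pluripotent cells lie near 0.

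Because several of these genes also mark other cell types, marker lists of those types were read in the same libraries. The part that any of them has in the differences was not tested. Of 23 extraembryonic endoderm markers, 15 were tested and limma called 0, with a median difference of -0.70. WT replicate 1 was the highest library for 16 of the 23, where 28.5% of genes above 0 in any library were highest there. Lrp2, an uptake receptor, was at 7.10 and 5.60 RPKM in Kcnh2-/-, against 9.82 and 12.1 RPKM in WT, and the laminin gene Lamc1 at 32.3 and 32.4 RPKM in Kcnh2-/- and 38.7 and 58.5 RPKM in WT. The summed list was at 623 and 2078 RPKM in Kcnh2-/- and 1129 and 1092 RPKM in WT, led by Apoe. Visceral endoderm markers of the list differed among themselves. Afp, the classical one, was at 0.142 RPKM or less in every library. Ttr, which encodes the carrier protein transthyretin, was at 4.24 RPKM and listed at 0 in Kcnh2-/-, against 30.9 and 1.31 RPKM in WT. The apolipoprotein gene Apoa2 was at 12.8 and 23.4 RPKM in Kcnh2-/-, against 2.10 and 14.7 RPKM in WT. Ttr was thus highest in WT replicate 1, where Apoa2 was lowest.

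Heart markers, summed, were highest in WT replicate 1 and lowest in Kcnh2-/- replicate 2, as was the sum of the endoderm genes. Of 14 listed, 13 were in the files, 4 were tested and limma called 0, with a median difference of -1.998. All 13 were highest in WT replicate 1, and 10 of them were also lowest in Kcnh2-/- replicate 2. They summed to 86.1 and 12.1 RPKM in Kcnh2-/- and to 731 and 48.0 RPKM in WT, mostly from Tnnc1 and Actc1. Among the heart transcription factors, Nkx2-5 and Tbx5 were at 0.111 RPKM or less in every library. Isl1, a factor of heart progenitors, was at 0.454 and 0.0188 RPKM in Kcnh2-/-, against 7.51 and 0.348 RPKM in WT. Tbx20, Hand2, Mef2c and Hand1 were at 1.34 to 3.66 RPKM in WT replicate 1 and at 0.923 RPKM or less in each other library. None of these factors passed the filter for testing. Tnnt2, which encodes cardiac troponin T, was among the 9 genes nearest to the endoderm profile.

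Most endothelial and blood markers, 13 of the 19 found, were highest in WT replicate 1. Of 20 listed, 6 were tested and limma called 0, with Gata1 at an unadjusted p under 0.05 and a median difference of -0.19. They summed to 21.2 and 17.5 RPKM in Kcnh2-/- and to 66.6 and 13.5 RPKM in WT. The endothelial receptor gene Kdr was at 0.153 and 0.00713 RPKM in Kcnh2-/-, against 3.93 and 0.101 RPKM in WT. Emcn was listed at 0 in both Kcnh2-/- libraries and in WT replicate 2, and was at 5.28 RPKM in WT replicate 1. Ptprc, the general marker of white blood cells, was at 0.00959 RPKM or listed at 0 in every library. Kdr and Emcn were named after their values were seen, and neither passed the filter for testing. Tie1, which was tested, was at 0.812 and 3.17 RPKM in Kcnh2-/-, against 1.39 and 0.556 RPKM in WT, and so was highest in Kcnh2-/- replicate 2. Over the 6 tested genes of this list, the median difference was -0.49 within replicate 1 and 0.25 within replicate 2.

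Summed markers of pluripotent cells were lowest in WT replicate 1. All 7 found were tested, limma called 0, and the median difference was -0.0962. Pou5f1, the core pluripotency factor, was at 1043 and 1679 RPKM in Kcnh2-/-, against 273 and 1203 RPKM in WT. The list summed to 1081 and 1848 RPKM in Kcnh2-/- and to 318 and 1383 RPKM in WT, mostly from Pou5f1. Sox2, which neural cells also use, was at 18.1 and 43.8 RPKM in Kcnh2-/-, against 33.9 and 47.8 RPKM in WT, and Tbx3 at 1.53 and 9.50 RPKM in Kcnh2-/-, against 3.37 and 11.1 RPKM in WT. Sox2 and Tbx3 were lowest in Kcnh2-/- replicate 1. Nanog was at 8.69 and 74.1 RPKM in Kcnh2-/-, against 2.50 and 72.6 RPKM in WT. Esrrb was at 4.47 and 27.9 RPKM in Kcnh2-/-, against 1.58 and 20.5 RPKM in WT. Like Pou5f1, the genes Nanog, Esrrb, Klf4 and Tfcp2l1 were lowest in WT replicate 1. Trophoblast markers (8 listed, 3 tested, 0 called, median 0.23) summed to 57.6 and 36.1 RPKM in Kcnh2-/- and 41.2 and 42.5 RPKM in WT. Notochord and floor plate markers (7 listed, 5 found, 2 tested, 0 called, median -0.34) summed to 6.34 and 5.75 RPKM in Kcnh2-/- and 11.1 and 6.26 RPKM in WT. WT replicate 1 was the highest library for 3 of the 5, against 28.5% of genes above 0 in any library. Among them Shh, which was not tested, was at 0.176 and 0.0286 RPKM in Kcnh2-/-, against 2.86 and 0.176 RPKM in WT.

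**Figure D5:**
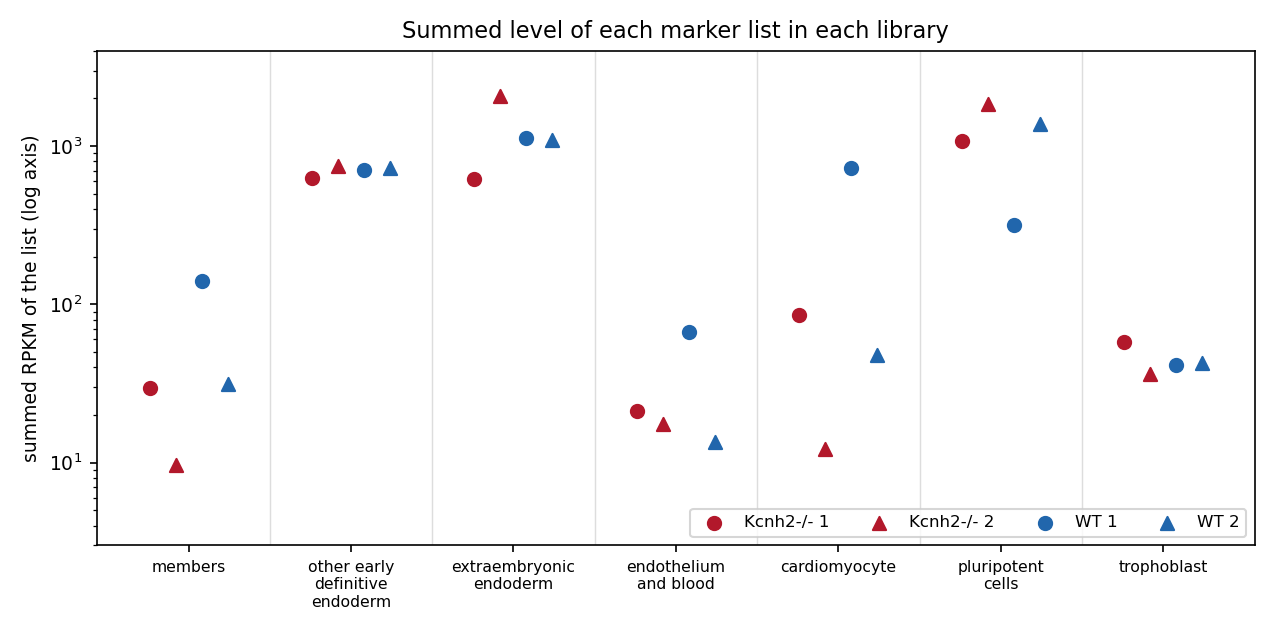
Summed RPKM of each marker list on a log axis, 1 point per library (Kcnh2-/- red, WT blue; circles replicate 1, triangles replicate 2). The 9 genes and the cardiomyocyte list are highest in WT replicate 1 and lowest in Kcnh2-/- replicate 2, and the pluripotent list is lowest in WT replicate 1.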

How the data were processed

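RNA was depleted of ribosomal RNA, made into TruSeq stranded libraries and sequenced as paired reads, per the labels' protocols. The authors used TopHat2 2.0.13 and Cufflinks 2.2.1 on rn6, per the submitters' processing notes. The gene models are those of an annotation not given in the sources used here. They deposited 1 table of RPKM values per library, with Ensembl gene IDs, symbols and loci.

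The genotype difference (Kcnh2-/- minus WT) came from limma 3.58.1 under R 4.3.3, two-sided, with a mean-variance trend and no replicate term. Its input was log2(RPKM + 1) of the 12355 genes that reached 1 RPKM in 2 or more libraries, with p-values adjusted over all of them at a threshold of 0.05. The fit was checked on simulated data: with the replicate effect of these libraries it recovered none of the planted changes, whereas it recovered most of them in data with no replicate effect, as did a fit with a replicate term on protein-coding genes. Protein-coding status came from a RefSeq gene table (GRCr8), which matched 19341 of the 32753 symbols. Members and gene lists were chosen with earlier results of these data known. All members are named; of each list the tested genes of smallest p or highest mean, or those of the family at issue; and, of the 10 protein-coding genes nearest in profile, the first 9. Values of some listed genes are not reported here. Some genes are in more than 1 list (Gata1, Gata3, Cdx2, Eomes, Hand1 and Hnf4a). Acvr2b, Lrp2, Cdk14, Plppr3, Nanog and Tfcp2l1 share a locus with another gene, so reads could be divided between them. Any further gene was picked with its values in view. Alternatives covered the pseudocount, filter, scaling, variance model, threshold, genes tested, a replicate block and each library left out; the chromosome-centred values and the comparison of WT replicate 2 with Kcnh2-/- replicate 1 were added after seeing the data. Summaries used Python 3.11.15 with numpy 2.4.6 and pandas 2.3.3, and figures matplotlib 3.10.9.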

Additional observations from a re-analysis of the deposited data

How the results depend on the processing

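The differences of all 6 tested genes stayed negative under every alternative fit in which they passed the filter. The 9 genes had 0 calls under each of these except 1, the replicate block with protein-coding genes only, in which limma called 2, Cxcr4 (adjusted p = 0.0112) and Foxa2 (0.0237), beside 0.23% of 10850 genes called lower. With the replicate block over all genes, the limma adjusted p was 0.0634 for Cxcr4 and 0.13 for Foxa2. The block with protein-coding genes only was not particular to this set. There limma also called the heart genes Tnnc1 (adjusted p = 0.00581) and Actc1 (0.0125), both lower in Kcnh2-/-. The labels give no pairing by number, though deviations from the group means of same-numbered libraries correlated at r = 0.381 across all tested genes and 0.582 across protein-coding ones.

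Calls over all genes moved more. Against 4 higher and 10 lower, there were 7 higher with a pseudocount of 0.1, and 0 higher and 3 lower with a pseudocount of 5. No filter gave 0 higher and 1 lower, median-of-ratios scaling 1 higher, quantile normalization 8 higher, and scaling to the protein-coding sum 74 higher and 31 lower. Without a variance trend, and with protein-coding genes only, there were 0 higher and 3 lower. The replicate block gave 14 higher, with protein-coding genes only 57 higher and 25 lower, and a threshold of 0.1 gave 7 higher. With each library left out, calls ran from 0 to 0 higher and from 0 to 15 lower; lone libraries are then assumed to vary like the other group. The cause was not tested.

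With each library left out, the median of the tested endoderm genes ran from -2.32 to -0.73, over 5 or 6 genes. Between WT replicate 2 and Kcnh2-/- replicate 1 alone it reversed to 0.0396, with Foxa2 at 0.38, Gata4 at 0.13 and Gata6 at 0.18; less the chromosome medians it was -1.41. Scaling to the protein-coding sum moved the median of all genes by 0.21; Hhex was then at -0.0873. Low values such as Sox7 cannot be given counting errors, since depth is unknown.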
